A study of Mus musculus with 20 samples.

Results

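The NRF2 antioxidant targets described here were taken as the rows of the deposited expression table whose symbol is Nqo1, Gclc, Gclm, Srxn1, Txnrd1, Slc7a11, Gsta1 or Gm3776. Of these 8 symbols, 6 were found among the 6025 genes of the table: Nqo1, Srxn1, Txnrd1, Slc7a11, Gsta1 and Gm3776. Gclc and Gclm, the subunits of the enzyme that starts glutathione synthesis, were not analysed here. The values come from RNA sequencing of kidney cortex from 20 mice under 3 forms of acute kidney injury and in controls. All mice were wild-type C57BL/6 animals (C57BL/6J in the protocol) aged 8 weeks, and no allele or transgene is named for any group. The injured groups were sampled 24 h after ischemia-reperfusion (IRI, n = 4), 24 h after the induction of rhabdomyolysis (n = 4) and 72 h after cisplatin (n = 4). The controls (n = 8) are labelled mock, and the design text of the series describes them as mock and vehicle mice, so both kinds may be present and cannot be told apart here. Doses and the length of ischemia were not given in the sources used here. IRI stops and then restores the blood flow of the kidney, rhabdomyolysis floods it with heme proteins from muscle, and cisplatin is a platinum drug that damages DNA and is taken up by tubule cells. The time after injury differs between cisplatin and the other groups, so injury and time cannot be told apart in any comparison with cisplatin.

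NRF2, the product of Nfe2l2, is a transcription factor that is held in the cytoplasm and marked for destruction by its partner KEAP1. Electrophiles and oxidants modify KEAP1, NRF2 then accumulates, pairs with a small MAF protein in the nucleus and binds antioxidant response elements near its target genes, while BACH1 competes for the same sites. In the kidney this pathway has mostly been studied in the proximal tubule, which is rich in mitochondria and exposed to filtered toxins. The 6 genes stand for different arms of the response: Nqo1 reduces quinones, Srxn1 and Txnrd1 keep peroxiredoxins and thioredoxin in working order, Slc7a11 imports cystine for glutathione, and Gsta1 and Gm3776 encode alpha-class glutathione S-transferases that couple glutathione to electrophiles.

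Expression is given as CPM, the reads of a gene scaled to a common library size. The library sizes implied by the table lay between 6.07 and 10.6 M reads. Of these reads the table held 55.3% to 70.6% in controls. It held 46.3% to 48.3% in IRI, 42.1% to 45.3% in rhabdomyolysis and 44.4% to 47.3% in cisplatin. The table is a selection, since in all 6025 genes the mean of 1 injury or more lay at least 1.5-fold away from that of the controls, and high shares of changed genes are thus a property of the table. Controls 1 to 4 share a range of library numbers with the IRI mice, and controls 5 to 8 share one with the rhabdomyolysis and cisplatin mice. Each injury was set against the 4 controls of its own range (matched controls). Rhabdomyolysis and cisplatin therefore share their controls. Between the 2 sets of controls, 0 of 6 members and 0% of all genes passed limma's test with Benjamini-Hochberg adjustment over the 5672 genes tested. At an unadjusted p under 0.05, limma counted 1 member (Nqo1) and 454 genes, and edgeR also called 0 genes after adjustment. All 8 proximal tubule markers were present, of which 6 fell in IRI and 8 in each of the other injuries. The IRI count was 4 after quantile normalization (median -0.36 beside -0.92) and 8 in edgeR and in DESeq2. Their summed level ranged from 11621 to 17904 CPM over the controls, from 4406 to 5603 CPM in IRI, from 2233 to 2758 CPM in rhabdomyolysis and from 2410 to 4216 CPM in cisplatin. In whole cortex, fewer cells of a type and less RNA per cell cannot be told apart. Markers of recruited myeloid cells (7 of 8 present) summed to 16.6 to 28.2 CPM in controls and to 73.9 to 96.5, 77.5 to 162 and 69.8 to 143 CPM in IRI, rhabdomyolysis and cisplatin, and endothelial markers (3 of 6 present) to 81.1 to 197 CPM in controls and to 170 to 206, 362 to 452 and 223 to 309 CPM. Of the thick ascending limb and distal tubule markers, 4 of 4 tested fell in each injury (median sums 2116 CPM in controls and 645, 719 and 464 CPM in IRI, rhabdomyolysis and cisplatin), as did 3 of 3 collecting duct markers (307, 155, 140 and 151 CPM). After quantile normalization 3 of the 4 thick ascending limb and distal tubule markers fell in IRI and 3 in rhabdomyolysis. The 5 resident macrophage markers present had median sums of 237, 114, 211 and 201 CPM, with 1 rising and 2 falling in IRI and 3 rising and 2 falling in each of the other injuries, and the 2 podocyte markers present had median sums of 377, 535, 732 and 540 CPM. After quantile normalization 0 resident macrophage markers rose in IRI and 1 fell in rhabdomyolysis. Only the list of the thick ascending limb and distal tubule had a marker at 0, in 1 rhabdomyolysis library. Whether these shifts contribute to the changes of the NRF2 targets was not tested.

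Each of the 6 genes was higher in every injury than in matched controls, and 4 of them (Nqo1, Srxn1, Txnrd1 and Slc7a11) differed between rhabdomyolysis and cisplatin. Genes were tested where their mean reached 1 CPM in the libraries as a whole. For Nqo1, Srxn1 and Txnrd1 the controls alone reach that level, whereas Slc7a11, Gsta1 and Gm3776 lay below it in controls and entered the test through the injured libraries. Their rise was therefore fixed by how genes entered, and their values are given as a description. Of the other 3 genes, 3 of 3 were higher in IRI, against 40.6% of all genes tested (40.1% were lower and 80.7% differed in either direction). In rhabdomyolysis 3 of 3 were higher, against 48.8% (46.5% lower, 95.3% in either direction), and in cisplatin 3 of 3, against 47.8% (44% lower, 91.8% in either direction). For Nqo1, Srxn1 and Txnrd1 every injured library lay above all 8 control libraries, which among all genes tested held for 31% (IRI), 42.3% (rhabdomyolysis) and 40.7% (cisplatin). The exact two-sided permutation test of 4 against 4 libraries gave p = 0.0286 for each of the 3 genes in each injury, the smallest value that 70 arrangements allow.

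**Figure D1:**
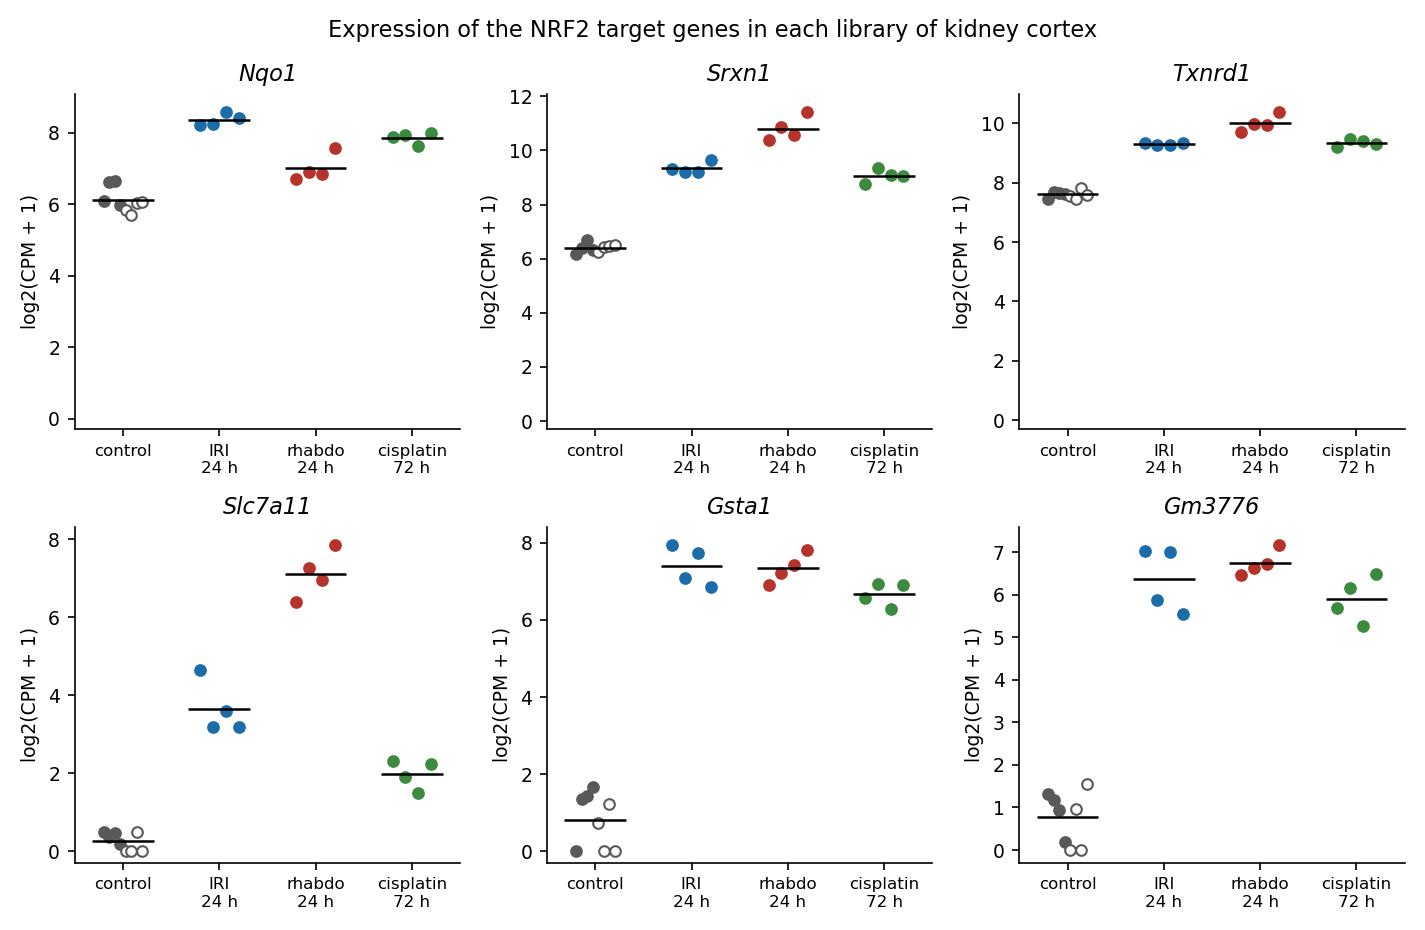
Expression of the 6 NRF2 target genes as log2(CPM + 1) in each of the 20 libraries, by group. Each point is 1 mouse, filled control points are controls 1 to 4, open ones controls 5 to 8, and lines are group means. Every injured library lies above all 8 controls in each panel, and rhabdomyolysis is the highest group for Srxn1, Txnrd1 and Slc7a11 but the lowest injured group for Nqo1.

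Nqo1 encodes NAD(P)H quinone dehydrogenase, a cytosolic enzyme that reduces quinones to hydroquinones in a single step and so avoids reactive semiquinones. The gene lies at chr8:107388225-107403205 (GRCm38). Nqo1 was measured at 67.4, 97.4, 99.5 and 62.3 CPM in controls 1 to 4 and at 56.5, 50.7, 65.1 and 66.2 CPM in controls 5 to 8. The IRI libraries had 298.3, 304.2, 383.9 and 343.5 CPM of Nqo1, the rhabdomyolysis libraries 103.0, 118.0, 114.5 and 191.5 CPM, and the cisplatin libraries 236.0, 243.2, 196.1 and 252.8 CPM. IRI was therefore the highest group and rhabdomyolysis the lowest injured one. Of its 4 mice, 3 lay just above control 3, the top of all 8 controls. The highest of the matched controls of rhabdomyolysis was at 66.2 CPM. The sets of controls stood at 81.6 CPM (controls 1 to 4) and 59.6 CPM (controls 5 to 8). Their log2 difference was 0.42 (unadjusted p = 0.0226, adjusted p = 0.541, limma), so the folds of IRI and of the other injuries rest on different base levels. Against matched controls the mean level of Nqo1 was 4.07-fold higher in IRI (332 ± 39.7 CPM, SD, n = 4), 2.21-fold in rhabdomyolysis (132 ± 40.4 CPM) and 3.89-fold in cisplatin (232 ± 25.0 CPM). The corresponding log2 differences were 2.04 ± 0.17 (SE; adjusted p = 1.11e-09), 1.10 ± 0.17 (adjusted p = 3.63e-06) and 1.94 ± 0.17 (adjusted p = 1.08e-09) in limma. Without rhabdomyolysis mouse 4, which held the 191.5 CPM, the rhabdomyolysis difference of Nqo1 was 0.90 (adjusted p = 1.3e-05, limma).

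Srxn1 encodes sulfiredoxin, which restores peroxiredoxins that have been inactivated by overoxidation of their catalytic cysteine. It lies at chr2:152105524-152111376 (GRCm38). The stretch upstream of its start is shown because Srxn1 was the only one of the 6 genes whose start-site window held the letters TGAGTCA, the sequence that AP-1 factors bind and that is part of the element bound by MAF proteins. Capitals mark the matches, at positions -102 and -45 counted from the transcription start, and the stretch is chr2:152105407-152105500 on the plus strand (RefSeq, GRCm38.p6).
Srxn1: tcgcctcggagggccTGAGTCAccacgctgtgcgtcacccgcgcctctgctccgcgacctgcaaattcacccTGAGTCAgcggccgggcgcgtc
Of all 32851 such windows, from 250 bases before to 50 bases after a start, 5.20% held TGAGTCA on either strand, and 0.167% (55 windows) held at least 2 matches before the start. The 6 genes matched 8 windows, since Txnrd1 has 3 annotated starts. The core of the antioxidant response element, TGACNNNGC, matched on either strand in the window of Srxn1 (position 29) and in 1 of the 3 windows of Txnrd1 (position -92), and 12.4% of all windows held it. A match to the longer motif can contain the shorter one. The remaining windows held neither, which says only that those letters are not in these windows, since response elements also lie farther from the start.

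In controls 1 to 8 Srxn1 was at 70.9, 82.5, 103.2, 79.8, 75.9, 84.5, 87.0 and 89.2 CPM. It reached 639.9, 595.2, 585.9 and 798.7 CPM in the IRI libraries, 1346.6, 1842.1, 1521.5 and 2733.5 CPM in the rhabdomyolysis libraries and 431.9, 645.5, 545.3 and 535.7 CPM in the cisplatin libraries. Every rhabdomyolysis library was above every other library, and the IRI and cisplatin ranges overlapped. Among all genes tested, 18.8% lay above cisplatin without overlap in rhabdomyolysis, and 42.3% lay above all 8 controls. The share above every other library was not computed. The mean rose 22.1-fold in rhabdomyolysis (1861 ± 617 CPM), 7.79-fold in IRI (655 ± 98.7 CPM) and 6.41-fold in cisplatin (540 ± 87.3 CPM). The log2 differences of Srxn1 were 4.40 ± 0.17 (adjusted p = 1.23e-15), 2.95 ± 0.17 (adjusted p = 3.61e-12) and 2.65 ± 0.17 (adjusted p = 6.66e-12) in limma, in the same order of groups.

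Txnrd1 encodes the cytosolic thioredoxin reductase, a selenoprotein that uses NADPH to reduce thioredoxin. The gene lies at chr10:82833951-82897724 (GRCm38), where it overlaps Eid3 on the same strand and Gm38560 and Gm47073 on the other. Whether reads were counted by strand was not given in the sources used here, so some Txnrd1 reads could belong to these neighbours. Txnrd1 was at 173.8, 204.4, 201.6, 194.0, 185.6, 175.5, 226.3 and 192.3 CPM in controls 1 to 8. The IRI libraries had 636.7, 609.6, 617.6 and 642.2 CPM, the rhabdomyolysis libraries 826.4, 1001.3, 971.2 and 1326.4 CPM and the cisplatin libraries 581.5, 706.1, 675.2 and 631.1 CPM. Within IRI the highest value was only 1.05 times the lowest, the tightest of the injured groups among the 6 genes. Rhabdomyolysis again lay above every other library, while IRI and cisplatin overlapped. How many of all genes show this was not computed. The means were 627 ± 15.4 CPM in IRI (3.24-fold; log2 difference 1.69 ± 0.12, adjusted p = 7.62e-11), 1031 ± 211 CPM in rhabdomyolysis (5.29-fold; 2.38 ± 0.12, adjusted p = 7.76e-14) and 648 ± 54.2 CPM in cisplatin (3.33-fold; 1.73 ± 0.12, adjusted p = 2.12e-11) in limma.

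Slc7a11 encodes xCT, the light chain of the cystine-glutamate exchanger that supplies cysteine for glutathione, and is known both as an NRF2 target and as a target of ATF4, the transcription factor of the amino acid and integrated stress response. The gene lies at chr3:50364936-50499087 (GRCm38), and 5 annotated genes overlap it, of which Gm37854 is an antisense RNA. Slc7a11 was barely detected in controls, at 0.404, 0.282, 0.387 and 0.144 CPM in controls 1 to 4 (9 reads in all) and at 0, 0, 0.401 and 0 CPM in controls 5 to 8 (3 reads in all). It reached 24.0, 8.12, 11.02 and 8.12 CPM in IRI, 83.2, 152.7, 123.0 and 228.0 CPM in rhabdomyolysis and 3.97, 2.73, 1.79 and 3.68 CPM in cisplatin. The 4 groups did not overlap, and the order of their levels was rhabdomyolysis, IRI, cisplatin and control. The share of all genes with the 4 groups apart was not computed. Pooled over libraries, the ratio of scaled reads to matched controls was 1290 in rhabdomyolysis (95% counting interval 441 to 6255), 41.0 in IRI (21.4 to 90.3) and 27.4 in cisplatin (9.16 to 135). These intervals cover counting error only, since reads carried no molecular tags, and with so few control reads the fitted log2 differences depend on the number added before the logarithm. They were 6.99 ± 0.29 in rhabdomyolysis, 3.27 ± 0.29 in IRI and 1.86 ± 0.29 in cisplatin, given as a description with no test. Over the alternatives tried the Slc7a11 difference ranged from 4.81 to 10.39, from 1.67 to 5.38 and from 0.65 to 4.79.

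Gsta1 and Gm3776 are neighbouring genes at chr9:78230669-78242683 and chr9:78257129-78269166 (GRCm38). Their longest transcripts matched at 99.5% of 874 aligned bases, with 4 mismatches, and 62.4% of the 150-base stretches of the Gsta1 transcript occur unchanged in that of Gm3776. Reads can therefore not be assigned to either gene with certainty, and their sum is given beside the single rows. The longest transcript of Gsta2 was 97.2% identical to that of Gsta1. It held 14.3% of the 150-base stretches of Gsta1 unchanged, so reads shared with Gsta2 are possible in the sum too. The similarity extends upstream of the genes, where the start-site windows differed at 3 of 287 aligned bases (99.0% identical). The stretches chr9:78230422-78230481 and chr9:78256895-78256954 (plus strand, RefSeq, GRCm38.p6) show this, with the base that differs between them in capitals.
Gsta1: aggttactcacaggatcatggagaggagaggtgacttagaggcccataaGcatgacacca
Gm3776: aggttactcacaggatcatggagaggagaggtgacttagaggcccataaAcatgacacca

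Both genes were nearly silent in controls. Gsta1 had 0, 1.55, 1.68, 2.16, 0.659, 0, 1.34 and 0 CPM in controls 1 to 8, and Gm3776 had 1.48, 1.27, 0.903, 0.144, 0, 0.962, 0 and 1.93 CPM. Over the 8 controls the sum was 1.76 ± 0.776 CPM. The share of the 2 rows' reads that went to Gsta1 was 0% in controls 1, 6 and 8 and 100% in controls 5 and 7, on 4 to 20 reads for both genes per control. In the injured libraries this share stayed between 57.2% and 71.4%, on 1024 to 3245 reads.

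In IRI, Gsta1 was at 243.9, 134.1, 213.3 and 114.1 CPM and Gm3776 at 129.2, 57.7, 128.2 and 45.8 CPM. In rhabdomyolysis Gsta1 was at 119.3, 147.7, 171.7 and 226.2 CPM and Gm3776 at 86.8, 98.6, 105.3 and 142.3 CPM. In cisplatin Gsta1 was at 93.9, 120.6, 77.2 and 118.9 CPM and Gm3776 at 50.3, 70.5, 37.2 and 88.9 CPM. The ranges of the injured groups overlapped for both genes, and in IRI mice 1 and 3 were high for both genes and mice 2 and 4 low. The summed level rose from matched controls 116-fold in IRI (267 ± 106 CPM), 224-fold in rhabdomyolysis (274 ± 69.1 CPM) and 134-fold in cisplatin (164 ± 42.8 CPM). The sets of controls themselves stood at 2.29 CPM (controls 1 to 4) and 1.22 CPM (controls 5 to 8), a log2 difference of 0.58 (unadjusted p = 0.0309, adjusted p = 0.551, limma), so the folds of IRI and of the other injuries rest on different base levels. On the log2(CPM + 1) scale the fitted difference of the summed row was 6.27 ± 0.25 in IRI, 6.95 ± 0.25 in rhabdomyolysis and 6.21 ± 0.25 in cisplatin. These values are a description with no test, since both rows entered through the injured libraries. Of the single rows, Gsta1 was higher by 6.29, 6.86 and 6.18 and Gm3776 by 5.46, 6.12 and 5.27 in the same order, again as a description with no test. With 5 CPM added in place of 1 the Gm3776 difference in cisplatin was 3.49.

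**Figure D2:**
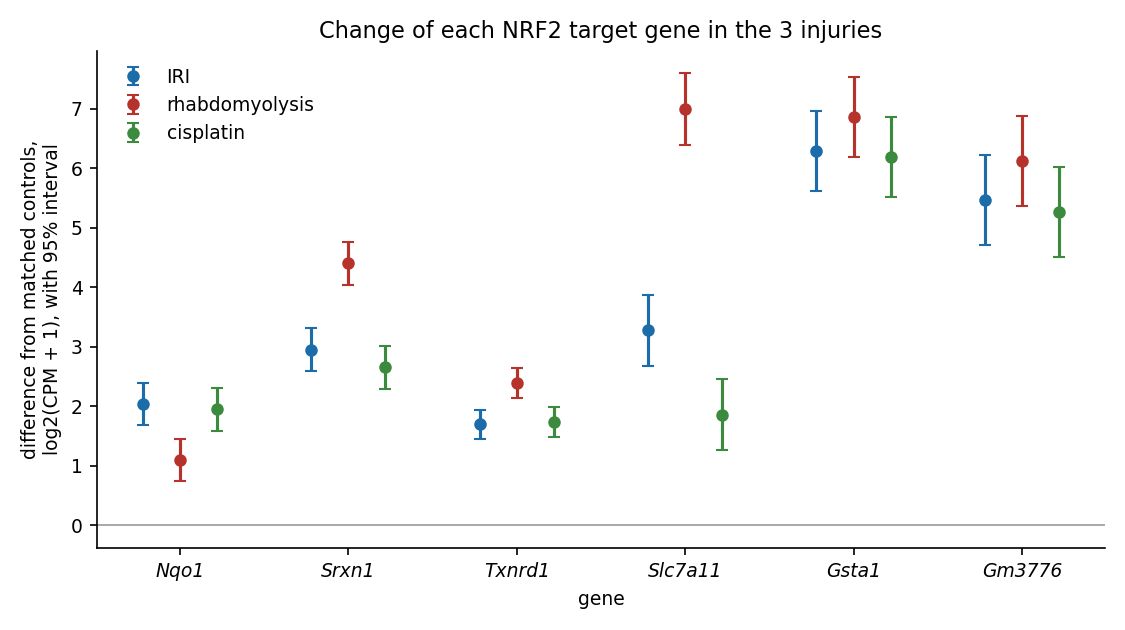
Difference of each gene from its matched controls on the log2(CPM + 1) scale in the 3 injuries, with 95% intervals from limma. Slc7a11, Gsta1 and Gm3776 are shown as a description, since they entered the test through the injured libraries. The injuries are close together for Gsta1 and Gm3776, while Slc7a11 spans from 1.86 in cisplatin to 6.99 in rhabdomyolysis.

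Rhabdomyolysis and cisplatin lie in the same range of library numbers and were compared directly. Of the 6 genes 3 were higher in rhabdomyolysis and 1 was lower, against 21.4% and 32.7% of all genes (54.1% in either direction). Of all calls in this comparison 39.6% were higher, and 51.7% after quantile normalization. Srxn1 was 1.74 higher on the log2 scale (adjusted p = 2.43e-08) and Txnrd1 0.65 (adjusted p = 1.11e-04) in limma. Slc7a11, which is counted among the 3, was 5.13 higher. Its value is a description, since it entered the test through the injured libraries. Nqo1 fell by 0.85 between cisplatin and rhabdomyolysis (adjusted p = 2.94e-04, limma). For these 4 genes the libraries of the injuries did not overlap, which was so for 47.8% of all genes (18.8% higher and 29% lower in rhabdomyolysis). Gsta1 differed by 0.67 (95% interval 0.00118 to 1.35, adjusted p = 0.0839) and Gm3776 by 0.85 (0.0974 to 1.60, adjusted p = 0.0525), neither passing the threshold in limma. Their sum was 0.74 ± 0.25 higher in rhabdomyolysis (adjusted p = 0.0168), a call that was lost without rhabdomyolysis mouse 4 (0.59, adjusted p = 0.0657) and without cisplatin mouse 3 (0.58, adjusted p = 0.0695) in limma. Both single rows passed with 5 CPM added in place of 1, after either rescaling of the libraries, in a fit to these libraries alone and with the replicate block. Gm3776 also passed in edgeR (0.81, adjusted p = 0.0491), against all 8 controls (adjusted p = 0.0494, limma) and in 8 fits that left out 1 library (adjusted p = 0.0293 to 0.0485, limma). Gsta1 passed in 1 such fit (adjusted p = 0.0375, limma).

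IRI lies in the other range, so its difference from its own controls was set against that of the other injuries. Compared with rhabdomyolysis, the IRI effect was larger for 1 gene (28.6% of all genes) and smaller for 3 (23.4%; 52% in either direction). The larger one was Nqo1, by 0.94 ± 0.24 (adjusted p = 0.00310, limma). Smaller effects in IRI were those of Srxn1 by -1.45 (adjusted p = 5.54e-05) and Txnrd1 by -0.69 (adjusted p = 0.00212) in limma. Slc7a11, which is counted among the 3, had a difference of -3.72. Its value is a description, since it entered the test through the injured libraries. The summed Gsta1 and Gm3776 row differed by -0.68 (adjusted p = 0.112, limma). Compared with cisplatin, 1 of 6 genes had a larger IRI effect (13.5% of all genes) and 0 a smaller one (16.8%; 30.3% in either direction). Of all calls in this comparison 44.5% were larger in IRI, and 55.9% after quantile normalization. That gene was Slc7a11, by 1.42 (adjusted p = 0.0115, limma), although it entered through the injured libraries and had at most 3 reads in any control. The call was lost with 0.1 CPM added in place of 1 (0.57, adjusted p = 0.546) and in edgeR (0.70, adjusted p = 0.841) and DESeq2 (0.59, adjusted p = 0.739) on recovered reads. For Nqo1 the difference between the IRI and cisplatin effects was 0.09 (95% interval -0.417 to 0.599), for Srxn1 0.29 (-0.214 to 0.801) and for Txnrd1 -0.04 (-0.394 to 0.316). An interval that spans 0 does not show that the injuries act alike on these genes.

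Within a library, ratios between genes do not depend on how the library was scaled. They are used here only to compare groups, because a ratio of CPM is not a ratio of transcripts. The ratio of Srxn1 to Nqo1 was 0.847 to 1.67 in controls, 1.53 to 2.33 in IRI, 1.83 to 2.78 in cisplatin and 13.1 to 15.6 in rhabdomyolysis. The 4 rhabdomyolysis values stood apart from all other libraries, and their spread (14.1 ± 1.16, SD, n = 4) was small beside the distance, although the levels of both genes varied up to 2.03-fold within that group. Txnrd1 per Nqo1 was likewise 7.98 ± 0.735 in rhabdomyolysis against 2.87 ± 0.579 in controls, 2.83 ± 0.457 in cisplatin and 1.90 ± 0.225 in IRI. Slc7a11 per 100 Srxn1 was 7.72 ± 1.04 in rhabdomyolysis, 2.00 ± 1.22 in IRI, 0.589 ± 0.267 in cisplatin and 0.241 ± 0.227 in controls, the last on at most 3 reads of Slc7a11 per library. The IRI values of this ratio ran from 1.02 to 3.75, and mouse 1 held the highest.

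**Figure D3:**
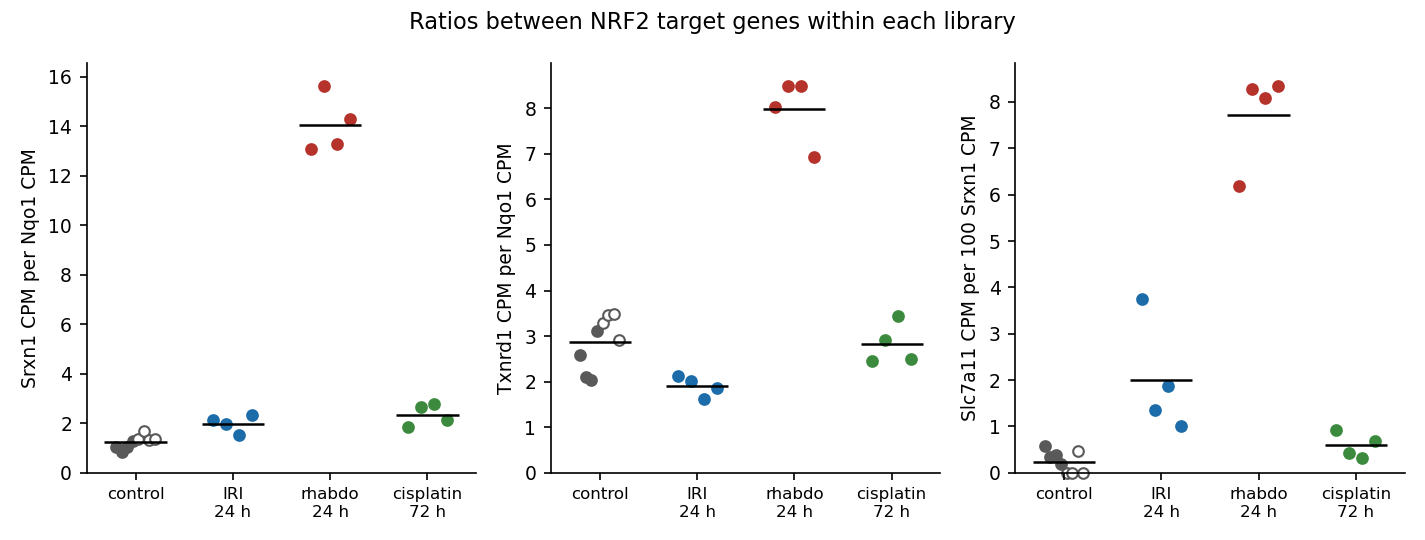
Ratios of CPM between genes within each library, by group, on linear axes. Points are single mice, filled control points are controls 1 to 4, open ones controls 5 to 8, and lines are group means. In all 3 panels the rhabdomyolysis libraries lie above every other library, with Srxn1 per Nqo1 between 13.1 and 15.6.

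The mice of a group also differed among themselves. In rhabdomyolysis mouse 4 was highest and mouse 1 lowest for all 6 genes, with the highest value between 1.61 times (Txnrd1) and 2.74 times (Slc7a11) the lowest. In IRI mouse 1 was highest and mouse 4 lowest for Slc7a11, Gsta1 and Gm3776, whereas for Srxn1 and Txnrd1 mouse 4 was the highest. The pairs of genes closest to each other over the 12 injured libraries were Nqo1 with Txnrd1, at a root mean square distance of 0.794 on the log2 scale, and Gsta1 with Gm3776 at 0.856, the latter pair sharing reads. Nqo1 and Gsta1 were farthest apart at 4.82.

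By the same distance, the genes of the whole table whose changes were nearest to those of each member were as follows. Txnrd1 had the closest neighbours: Tes at 0.122, Adm, which encodes the vasodilator peptide adrenomedullin, at 0.173, and the stress gene Gadd45a at 0.212. For Nqo1 they were Ypel2 (0.336), Gm10639 (0.346) and BC021614 (0.360). Gm10639 lies beside Gm3776 on chromosome 9, and its longest transcript was 96.9% identical to that of Gm3776, so reads shared with the Gsta genes are possible. The neighbours of Srxn1 were Adamts1, a secreted metalloproteinase, at 0.518, Pvr at 0.608 and Lrp8 at 0.614. The nearest to Slc7a11 was Hmox1, the heme-degrading oxygenase, at 1.23, followed by the heat shock genes Hspb1 (1.54) and Hspa1b (1.63). Akr1b8, an aldo-keto reductase, was nearest to both Gsta1 (1.31) and Gm3776 (0.782). Sprr1a, at 1.61, was also among the nearest of Gsta1, and Sprr2g, at 1.09, among those of Gm3776.

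Among the genes that regulate NRF2, 6 of the 11 listed were in the table. In IRI 2 of the 6 rose and 1 fell, where 40.6% of all genes tested were higher and 40.1% lower. In rhabdomyolysis 5 rose and 1 fell, beside 48.8% and 46.5%, and in cisplatin likewise 5 and 1, beside 47.8% and 44%. Their median log2 differences were 0.15, 1.22 and 0.64. The IRI median was 0.28 after 75th percentile scaling and 0.47 after quantile normalization, each with 3 genes rising. Nfe2l2 itself rose by 0.63 in IRI (adjusted p = 3.10e-05), 1.13 in rhabdomyolysis (adjusted p = 2.69e-09) and 1.58 in cisplatin (adjusted p = 2.14e-11) in limma, from 92.3 ± 9.82 CPM in controls to 149 ± 19.6, 194 ± 6.35 and 267 ± 32.2 CPM. Its level was thus lower in rhabdomyolysis than in cisplatin (by -0.45, adjusted p = 0.00163, limma), the opposite order to Srxn1, Txnrd1 and Slc7a11 and the same order as Nqo1. With IRI included the order differed from that of Nqo1 too, since Nfe2l2 rose least in IRI and Nqo1 most (2.04). Maff, a small MAF partner, rose by 2.61, 4.78 and 3.61 in IRI, rhabdomyolysis and cisplatin. Mafk, another, rose by 1.32 in rhabdomyolysis and 0.83 in cisplatin, with a difference of -0.03 in IRI (adjusted p = 0.799, limma). Bach1, the competitor of NRF2, rose by 0.90 in rhabdomyolysis and 0.39 in cisplatin, with 0.29 in IRI (adjusted p = 0.0508, limma), where it passed in 9 alternatives, among them 75th percentile scaling (0.41, adjusted p = 0.0107) and leaving out control 1 (0.37, adjusted p = 0.0184). Sqstm1 encodes p62, which sequesters KEAP1 and is itself an NRF2 target. It rose by 2.12 in rhabdomyolysis. Its difference in cisplatin was 0.45 (adjusted p = 0.0231, limma), a call lost without control 5, 6 or 8 or cisplatin mouse 4 (0.39 to 0.42, adjusted p = 0.0508 to 0.0642). The IRI difference of Sqstm1 was 0.02 (adjusted p = 0.922, limma), but 0.68 after quantile normalization (adjusted p = 5.09e-04). Btrc, part of a ubiquitin ligase that degrades NRF2, fell by 0.67, 0.70 and 0.54 in IRI, rhabdomyolysis and cisplatin.

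Of 35 further genes known as NRF2 targets, 27 were in the table and 25 were tested. In IRI 21 rose and 3 fell, beside 40.6% of all genes higher and 40.1% lower. In rhabdomyolysis 20 rose and 3 fell, beside 48.8% and 46.5%, and in cisplatin 22 rose and 3 fell, beside 47.8% and 44%. The medians were 1.32, 1.19 and 0.92, beside 0.08, 0.31 and 0.30 over all genes. After quantile normalization 1 fell in IRI, and against all 8 controls 5 fell in rhabdomyolysis. Akr1b8 rose by 5.15, 5.17 and 5.45, from 1.96 ± 0.364 CPM in controls to 99.8 ± 13.2, 110 ± 11.3 and 136 ± 34.4 CPM. Hmox1 was highest in rhabdomyolysis, at 1223 ± 287 CPM beside 566 ± 147 in IRI, 192 ± 15.6 in cisplatin and 38.1 ± 10.0 in controls, with log2 differences of 5.14, 3.70 and 2.50. Cbr3, a carbonyl reductase, had the reverse order between IRI and rhabdomyolysis, with rises of 5.28 and 2.65 (difference of the effects 2.63, adjusted p = 9.07e-07, limma), and rose by 3.74 in cisplatin. Akr1b3, an aldose reductase, rose by 2.33, 3.80 and 2.19 in IRI, rhabdomyolysis and cisplatin. Its cisplatin call was lost in edgeR (1.27, adjusted p = 0.0592) and DESeq2 (1.30, adjusted p = 0.153). A pair of genes, chosen after their values were seen, did not pass the test in rhabdomyolysis. Cbr1, the carbonyl reductase next to Cbr3 in function, rose by 2.58 in IRI and 2.14 in cisplatin but differed by -0.14 in rhabdomyolysis (adjusted p = 0.308, limma), where it was 2.29 lower than in cisplatin (adjusted p = 7.16e-12, limma). Against all 8 controls Cbr1 passed as lower in rhabdomyolysis (-0.31, adjusted p = 0.0268, limma), and with 75th percentile scaling its difference there was 0.0394 (adjusted p = 0.760, limma). Ephx1, the microsomal epoxide hydrolase, rose by 3.56 in cisplatin (565 CPM beside 47.2 CPM in controls 5 to 8) and by 0.40 in IRI, with -0.26 in rhabdomyolysis (adjusted p = 0.0653, limma). Against all 8 controls Ephx1 too passed as lower in rhabdomyolysis (-0.33, adjusted p = 0.0105, limma), as it did in a fit to these libraries alone and without control 1, control 7 or IRI mouse 4 (-0.32 to -0.26, adjusted p = 0.0325 to 0.0492). Its IRI call was lost without IRI mouse 2 (0.30, adjusted p = 0.0529, limma) and with the replicate block (0.40, adjusted p = 0.0503, limma). The genes that fell in every injury were Akr1a1 (by -1.44 in IRI, -1.86 in rhabdomyolysis and -1.52 in cisplatin), Cat (by -0.71, -1.53 and -0.91) and Me1 (by -0.59, -1.55 and -1.17). Cat encodes catalase, and Akr1a1 and Me1 encode an aldehyde reductase and the cytosolic malic enzyme. After quantile normalization the IRI differences of Cat and Me1 were 0.12 and -0.00779.

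**Figure D4:**
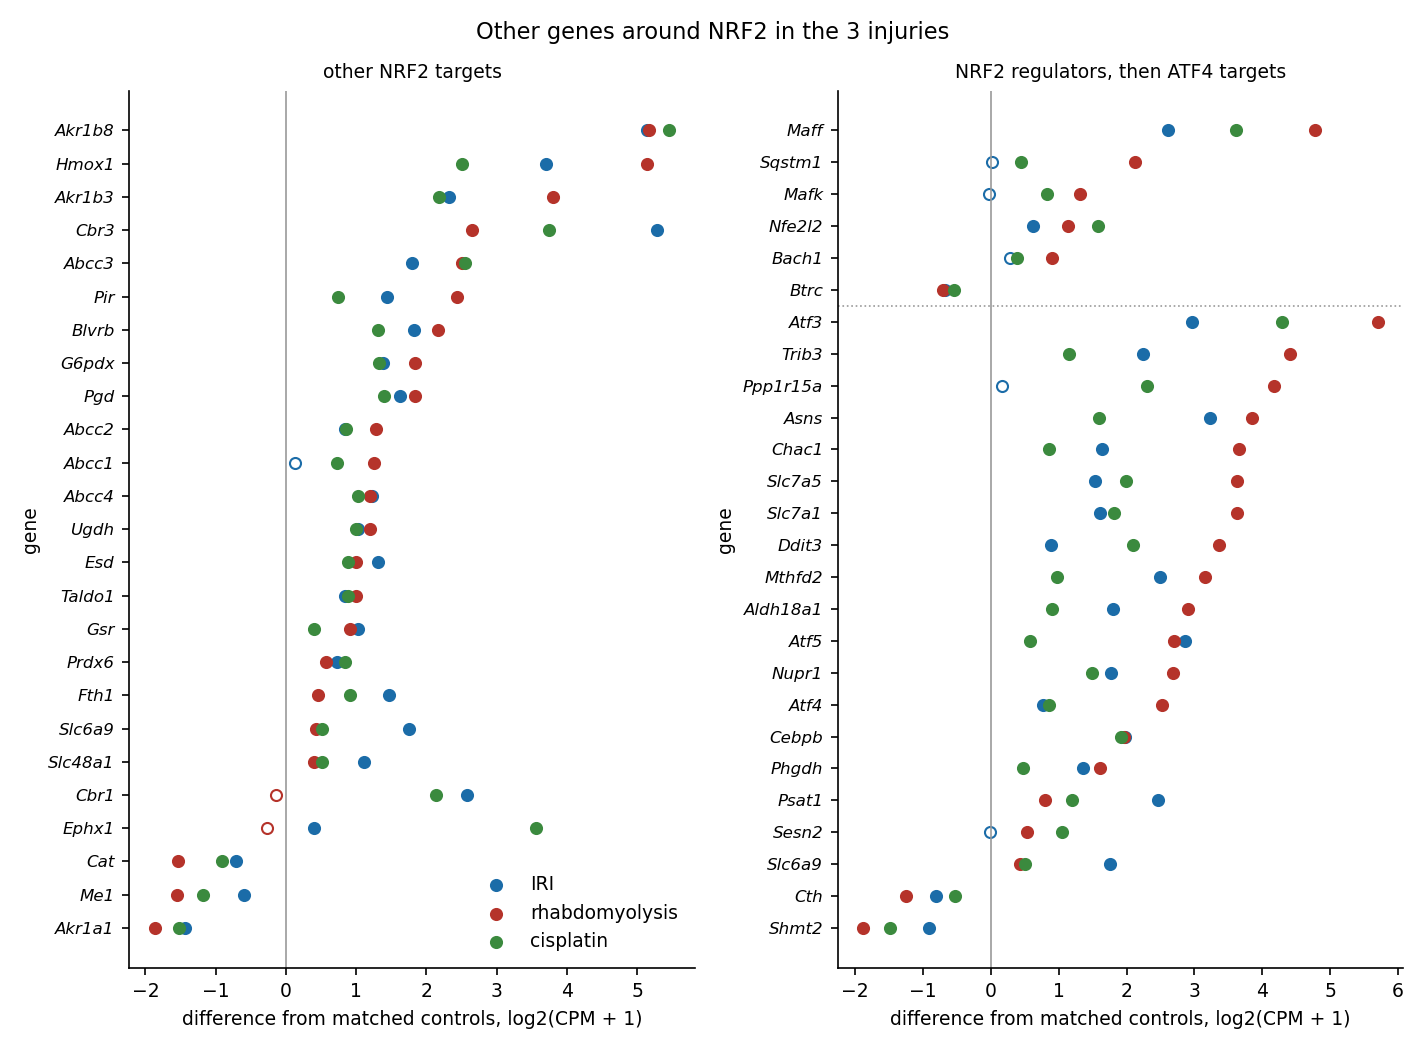
Difference from matched controls on the log2(CPM + 1) scale for 25 other NRF2 targets (left) and for NRF2 regulators and ATF4 targets (right, above and below the dotted line). Colours are injuries, and open points did not pass limma's adjusted threshold of 0.05. Most points lie to the right of 0, Cbr1 and Ephx1 are open in rhabdomyolysis, and most ATF4 targets are farthest right in rhabdomyolysis.

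The wider glutathione and redox lists held both rises and falls, and their counts are read beside the shares of all genes tested, 40.6% higher and 40.1% lower in IRI, 48.8% and 46.5% in rhabdomyolysis, and 47.8% and 44% in cisplatin. Of 19 genes of glutathione synthesis, transport and turnover that the table holds, 4 rose in each injury, while 15 fell in IRI, 15 in rhabdomyolysis and 14 in cisplatin (medians -0.79, -1.81 and -0.95). After quantile normalization 10 fell in IRI and 10 in cisplatin (medians -0.48 and -0.44), and 3 rose in cisplatin. With a minimum mean of 5 CPM 2 rose in each injury. Chac1, which degrades glutathione and is an ATF4 target, had a control mean of 0.463 CPM and entered the test through the injured libraries, and without it 3 genes rose in each injury. As a description its differences were 1.64, 3.65 and 0.86. Slc7a9, the cystine transporter subunit of the proximal tubule brush border, fell by 1.73, 2.91 and 1.83. Cbs, which makes cystathionine on the way to cysteine, fell by 2.87, 2.70 and 1.65, and Anpep, a brush border aminopeptidase, fell by 0.56 in IRI and 2.98 in rhabdomyolysis with -0.24 in cisplatin (adjusted p = 0.133, limma). After quantile normalization Anpep did not pass in IRI (-0.28, adjusted p = 0.103, limma), and without cisplatin mouse 1 it passed in cisplatin (-0.39, adjusted p = 0.0189, limma). The proximal tubule markers fell alongside, and their part in these falls was not tested. Of the other glutathione S-transferases, 14 of 26 were in the table, of which 7 rose and 7 fell in IRI, 6 rose and 8 fell in rhabdomyolysis, and 6 rose and 4 fell in cisplatin (medians -0.15, -0.76 and 0.24). After quantile normalization these medians were -0.03, -0.59 and -0.01. Gstz1 fell by 1.34, 3.01 and 0.95, Gstk1 by 1.82, 2.40 and 1.25, and Gstt2 by 1.24, 2.17 and 0.83, whereas Hpgds, a prostaglandin D synthase of this family, rose by 0.93, 2.65 and 2.28.

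Txnrd1 draws on NADPH, and of 10 genes of NADPH supply that the table holds, 4 rose and 6 fell in each injury (medians -0.74, -1.48 and -0.81). After quantile normalization 4 rose and 5 fell in IRI, with a median of -0.32, and 3 rose and 5 fell in cisplatin, with a median of -0.31. G6pdx, which opens the pentose phosphate pathway and is a known NRF2 target, rose by 1.38, 1.83 and 1.32. The mitochondrial enzymes Nnt and Idh2 fell, Nnt by 1.64, 2.38 and 1.95 and Idh2 by 1.67, 2.33 and 1.89, and the folate enzyme Mthfd1 fell by 1.46, 2.08 and 1.18. Of 15 genes of the thioredoxin and peroxiredoxin system and of superoxide and peroxide removal, 3 rose and 10 fell in IRI, and 4 rose and 11 fell in rhabdomyolysis and in cisplatin. After quantile normalization 2 rose and 5 fell in IRI, with a median of -0.05 beside -0.49. Sod2, the mitochondrial superoxide dismutase, fell by 1.19, 1.72 and 1.26 and Msra, a methionine sulfoxide reductase, by 0.49, 1.86 and 1.25, although its IRI difference was -0.05 after quantile normalization (adjusted p = 0.682, limma). Sod3, the extracellular dismutase, fell by 2.13 in rhabdomyolysis and 0.86 in cisplatin, and its IRI difference was -0.31 (adjusted p = 0.0697, limma). The Sod3 difference was 0.27 after quantile normalization, and it passed against all 8 controls (-0.40, adjusted p = 0.0100, limma) and without control 4 (-0.44, adjusted p = 0.0140, limma).

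ATF4 targets were read beside Slc7a11 because that gene belongs to both programs. Of the 20 tested, Atf3 and Chac1 lay below 1 CPM in controls and entered through the injured libraries. Of the other 18, 14 rose and 2 fell in IRI, beside 40.6% of all genes higher and 40.1% lower. In rhabdomyolysis 16 rose and 2 fell, beside 48.8% and 46.5%, and in cisplatin 16 rose and 2 fell, beside 47.8% and 44%. The medians of these 18 genes were 1.68, 2.70 and 1.11. Over all 20 genes 18 rose and 2 fell in cisplatin, where 15 rose and 1 fell after quantile normalization, and 1 fell without cisplatin mouse 3. Between rhabdomyolysis and cisplatin 14 of the 20 were higher and 4 lower in rhabdomyolysis, beside 21.4% and 32.7% of all genes, and 2 were lower after 75th percentile scaling or quantile normalization. Atf3, from a control mean of 0.794 CPM, had differences of 2.96, 5.70 and 4.29 in IRI, rhabdomyolysis and cisplatin, given as a description. The pseudokinase gene Trib3 rose by 2.24, 4.41 and 1.16, where the last missed the threshold with 5 CPM added (0.47, adjusted p = 0.0544, limma). Asns, the asparagine synthetase gene, rose by 3.22, 3.85 and 1.60. Ppp1r15a, which encodes GADD34 and ends the integrated stress response, rose by 4.18 in rhabdomyolysis and 2.31 in cisplatin, with 0.17 in IRI (adjusted p = 0.269, limma).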

How the data were processed

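RNA from renal cortex of 20 mice was sequenced as poly-A selected, stranded libraries of 150-bp pairs, per the labels' protocols. The submitters' processing notes name FastQC, Bowtie2 2.1.0, RSEM 1.2.15, edgeR and the builds GRCm38 and mm10, with no role or order. The authors deposited 1 table of normalized values, whose behaviour is that of CPM: within each library 100% of values were whole multiples of 1 step within a tolerance of 0.001, so whole reads were recovered (for cisplatin mouse 2 the step lies near rounding at 0.1 CPM, where this is less certain). The series calls the samples of a group biological replicates. Columns were matched to mice by the library number in the sample title.

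Values were tested as log2(CPM + 1), which understates changes of low genes, by limma 3.58.1 under R 4.3.3, in a model of 5 group means (controls of each range and 3 injuries) over all 20 libraries with a mean-variance trend. A minimum mean of 1 CPM left 5672 genes to test and removed 353, with 6 of 6 members kept, 3 of them through the injured groups, since their control means lay below it. Testing used Benjamini-Hochberg adjustment over all of them and a threshold of 0.05. Alternatives were pseudocounts of 0.1 and 5, no minimum mean or 5 CPM, 75th percentile scaling, quantile normalization, no trend, edgeR 4.0.16 and DESeq2 1.42.0 on recovered reads, all 8 controls, a fit to the libraries compared, a replicate block, 1 summed row for Gsta1 and Gm3776, and leaving out each library. The 75th percentile and quantile rescalings were computed from the genes of the table alone, which held a smaller share of reads in injured libraries. Whether this moved the rescaled differences was not tested. Self-tests on simulated data were run. Coordinates, start-site windows and transcripts come from RefSeq and GENCODE annotation of GRCm38.

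Members and gene lists were chosen with earlier results of these data known. Named are all members, the listed NRF2 regulators, in every other list up to 4 genes that passed with the largest absolute difference in any injury, and the 3 nearest genes of each member, of which 1 gene is not reported here. Cbr1, Ephx1, Akr1a1 and Me1 of the other NRF2 targets fall outside this rule and were chosen after their values were seen. A planned comparison of Gclm with Gclc was not made, since these genes were not analysed here.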

Additional observations from a re-analysis of the deposited data

Results flagged for a closer look

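Nqo1 in rhabdomyolysis mouse 4 stood apart from the other 3 mice of its group, at 191.5 CPM beside 103.0 to 118.0 CPM. Its gap to the nearest value was 0.831 of the range of the group, above Dixon's limit for a group of 4. Of 28 groups of values examined this was the only one past its limit, and chance passes about 1 in 20. The same mouse was the highest of its group for the other 5 genes too.

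The difference between the IRI and rhabdomyolysis effects passed limma's adjusted threshold for Nqo1 (0.94), Slc7a11 (-3.72), Srxn1 (-1.45) and Txnrd1 (-0.69). The difference between the IRI and cisplatin effects passed for Slc7a11 (1.42), a call that 3 alternatives did not keep. Slc7a11 entered the test through the injured libraries, so its differences are a description.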

How the results depend on the processing

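Nqo1, Srxn1 and Txnrd1 stayed higher than matched controls and past the threshold in all 3 injuries under every alternative run. The number of genes higher in rhabdomyolysis than in cisplatin, 3 in the chosen fit, was 5 with 5 CPM added, 75th percentile scaling, quantile normalization, a fit to these libraries alone or the replicate block, 4 in edgeR and against all 8 controls, and 3 to 4 when 1 library was left out. The summed Gsta1 and Gm3776 row ranged from 0.58 to 0.87 there when 1 library was left out, and its IRI minus rhabdomyolysis difference from -0.87 to -0.47. That difference passed with 0.1 CPM added (-1.02, adjusted p = 0.0490, limma) and without IRI mouse 1 (-0.87, adjusted p = 0.0427, limma). The number of genes with a larger effect in IRI than in cisplatin was 0 with 0.1 CPM added, in edgeR and in DESeq2.

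Differences between the IRI and cisplatin effects changed sign where they were near 0. With 0.1 CPM added they were -0.27 for the summed row, -0.75 for Gsta1 and -0.68 for Gm3776, in edgeR -0.17 for the sum and -0.57 for Gsta1, and in DESeq2 -0.18 and -0.62. Txnrd1 gave 0.000915 with 75th percentile scaling and 0.0657 with quantile normalization. Leaving out 1 library gave from -0.13 to 0.27 for the sum, -0.26 to 0.29 for Gsta1, -0.11 to 0.47 for Gm3776, -0.11 to 0.00903 for Txnrd1 and -0.0267 to 0.20 for Nqo1. In IRI against controls it gave from -0.0994 to 0.0277 for Mafk and from -0.18 to 0.13 for Sqstm1. Mafk in IRI was 0.0927 with 75th percentile scaling, and quantile normalization gave 0.68 for Sqstm1 (adjusted p = 5.09e-04, limma), 0.27 for Sod3 and 0.12 for Cat in IRI and 0.0446 for Anpep in cisplatin. Cbr1 in rhabdomyolysis was 0.0394 with 75th percentile scaling. The causes were not tested. 75th percentile scaling shifted the median of all genes by 0.12 in IRI and 0.18 in rhabdomyolysis, and quantile normalization by -0.18 in cisplatin and 0.12 between rhabdomyolysis and cisplatin.

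Same-numbered mice shared only a number: their deviations correlated at -0.112 to 0.176 between IRI and controls and at -0.207 to 0.325 between rhabdomyolysis and cisplatin. With the replicate block 4377 genes passed in IRI (4578 without it) and 2865 between rhabdomyolysis and cisplatin (3068 without it), and Gsta1 (adjusted p = 0.00865, limma) and Gm3776 (adjusted p = 0.00327, limma) passed there. No paired analysis was possible for rhabdomyolysis or cisplatin against controls because controls 5 to 8 share no numbers with them. Depth limits Slc7a11, Gsta1 and Gm3776 in controls, at no more than 3, 15 and 14 reads per library.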
